A study of Mus musculus with 8 samples.

Results

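The Hox genes are 39 of the 23284 gene symbols counted in these libraries, taken as every row whose symbol is Hoxa, Hoxb, Hoxc or Hoxd followed by a number. They fall into 4 clusters, with 11 genes in HoxA, 10 in HoxB, 9 in HoxC and 9 in HoxD. On GRCm38 HoxA lies on chromosome 6, HoxB at chr11:96194316-96368256, HoxC at chr15:102921103-103036852 and HoxD at chr2:74668310-74765142. Poly-A RNA was sequenced from 8 cultured lines of ID8 IP2, a mouse ovarian surface epithelial cancer line that had been passaged through C57BL/6 mice. The 4 Notch3IC lines carried a pCCL lentivirus with the HA-tagged intracellular domain of Notch3 (codons 1664 to 2318) and IRES-GFP, and the 4 Control lines carried the empty pCCL lentivirus. All lines also carried a FUW-luciferase-mCherry lentivirus, and testing after the work pointed to mycoplasma in all of them. Separate infections gave matched Sets 1 to 4, each with 1 Control and 1 Notch3IC line, so a p-value below measures the spread between infected lines of a single tumor line and not between animals. Library totals ran from 15524262 counts in the Notch3IC line of Set 2 to 28208072 in the Control line of Set 4.

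Hox genes encode homeodomain transcription factors that set position along the body axis, and the order of the genes along each cluster follows the order in which they are used from head to tail. Genes at the same place in different clusters form a numbered paralog group; groups 1 to 3 are called anterior here, 4 to 8 central and 9 to 13 posterior. Adult cells often keep the Hox pattern of the place they came from, held by the opposing Polycomb and trithorax chromatin complexes. In the female reproductive tract, the posterior HoxA genes pattern the Müllerian duct into oviduct, uterus, cervix and vagina. The question here was which Hox genes ID8 IP2 cells expressed, and how Notch3IC lines differed from their Controls, over all lines and within each set.

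Notch3 itself followed the labels in every set. Its counts in Sets 1 to 4 were 39, 34, 74 and 53 for Control and 3864, 319, 10026 and 6915 for Notch3IC. Heyl, a direct Notch target, reached 2 counts at most without the transgene, against 1927, 147, 7460 and 4628 with it. Hey1 and Nrarp, also direct Notch targets, were higher in every Notch3IC line too. The Notch3IC line of Set 2 was therefore by far the lowest of the 4 for the transgene and its targets. Of the markers of the ovarian surface and mesothelium, the uroplakin gene Upk3b and Wt1 were abundant in the Control lines, with medians of 288.9 and 184.6 CPM per kilobase of exon (CPM being counts per 1000000 normalised counts of the library), as were the keratins Krt19, Krt8 and Krt18 (123.7, 73.0 and 52.6), whereas Krt7 and Epcam were near 0 (0.055 and 0.16 on the same scale). Among markers of other cells, Ptprc, which all leukocytes carry, had 0 counts in 7 libraries and 2 in the other, and Cd3e, Emr1, S100a8, Erg and Sox17 were at 0 in all 8. Other such markers were present in the Control lines, among them Col1a1, Acta2 and Dcn of fibroblasts and smooth muscle, with medians of 571.7, 189.4 and 154.5 CPM per kilobase, and Nr5a1 of granulosa and theca cells, with 24.8. Further members of the same lists had Control medians near 0, among them Lum (0.021), Thy1 (0.027), Myh11 (0) and Des (0.048), and Foxl2 (0.068) and Amh (0.059).

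ID8 IP2 Control cells expressed HoxA, HoxC and HoxD genes and almost no HoxB. A gene was taken as detected with at least 10 counts in any library, which held for 25 of the 39 genes: 10 of 11 in HoxA, none of 10 in HoxB, 9 of 9 in HoxC and 6 of 9 in HoxD. Of these, Hoxa13 reached 10 counts only in Notch3IC lines, with 4, 8, 9 and 4 counts in the Controls. All of the 25 but Hoxa13 passed the filter on low counts, so 24 genes were tested. Levels between genes are compared on this scale, CPM per kilobase of exon, with exons taken from the transcripts matched to RefSeq. On that scale the highest Control medians were 10.7 for Hoxa7 (range over the 4 lines 10.6 to 10.9), 10.1 for Hoxd8 (8.58 to 11.8), 10.0 for Hoxd9 (9.72 to 13.4) and 9.75 for Hoxc10 (8.15 to 10.7). Hoxa10 followed at 8.58 (6.57 to 9.59) and Hoxc6 was the second of its cluster at 6.01 (5.03 to 6.83). These are modest levels: 49.7% of the genes tested had a lower Control level than Hoxa7. The order is loose, since the ranges of neighbours overlapped in 21 of 24 places, the breaks lying after Hoxa5, Hoxc4 and Hoxc12. Hoxa7 shares 28.8% of its exon bases with the antisense RNA Hoxaas3, and with the exons of all its transcripts as the length it moved from rank 1 to rank 6. Of Hoxd3 75.0% and of Hoxd4 45.1% of the exon bases are shared with another gene on the same strand, so their reads are uncertain. Smaller parts of Hoxa2 (15.0%), Hoxd11 (10.8%), Hoxa3 (10.1%), Hoxc10 (8.7%) and Hoxd10 (5.7%) are shared in the same way.

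Position along the cluster showed as follows in the Control lines. HoxA was expressed from its anterior genes through Hoxa10, with summed medians of 15.7 for the 3 anterior genes, 20.9 for the 4 central genes and 12.7 for the posterior genes, of which Hoxa10 gave most. Hoxa11, a uterine gene, had at most 2 counts in any line and Hoxa13 at most 17. HoxD peaked at Hoxd8 and Hoxd9 and stepped down through Hoxd10 at 4.16 and Hoxd11 at 1.07, while Hoxd12 and Hoxd13, which pattern the distal limb and genital bud, had at most 2 counts and 0. HoxC broke that slope: after Hoxc10, the levels were 0.79 for Hoxc11 and 0.78 for Hoxc12, then 5.95 for Hoxc13, the gene at the far posterior end that is best known for hair and nail keratin genes. The Control lines differed among themselves about as much for Hox genes as for other genes, with a median coefficient of variation of 16% over the 24 Hox genes tested and 15.4% over all genes tested. Hoxa7 was the steadiest at 1.36% and Hoxc8 the most variable at 41.2%.

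**Figure D1:**
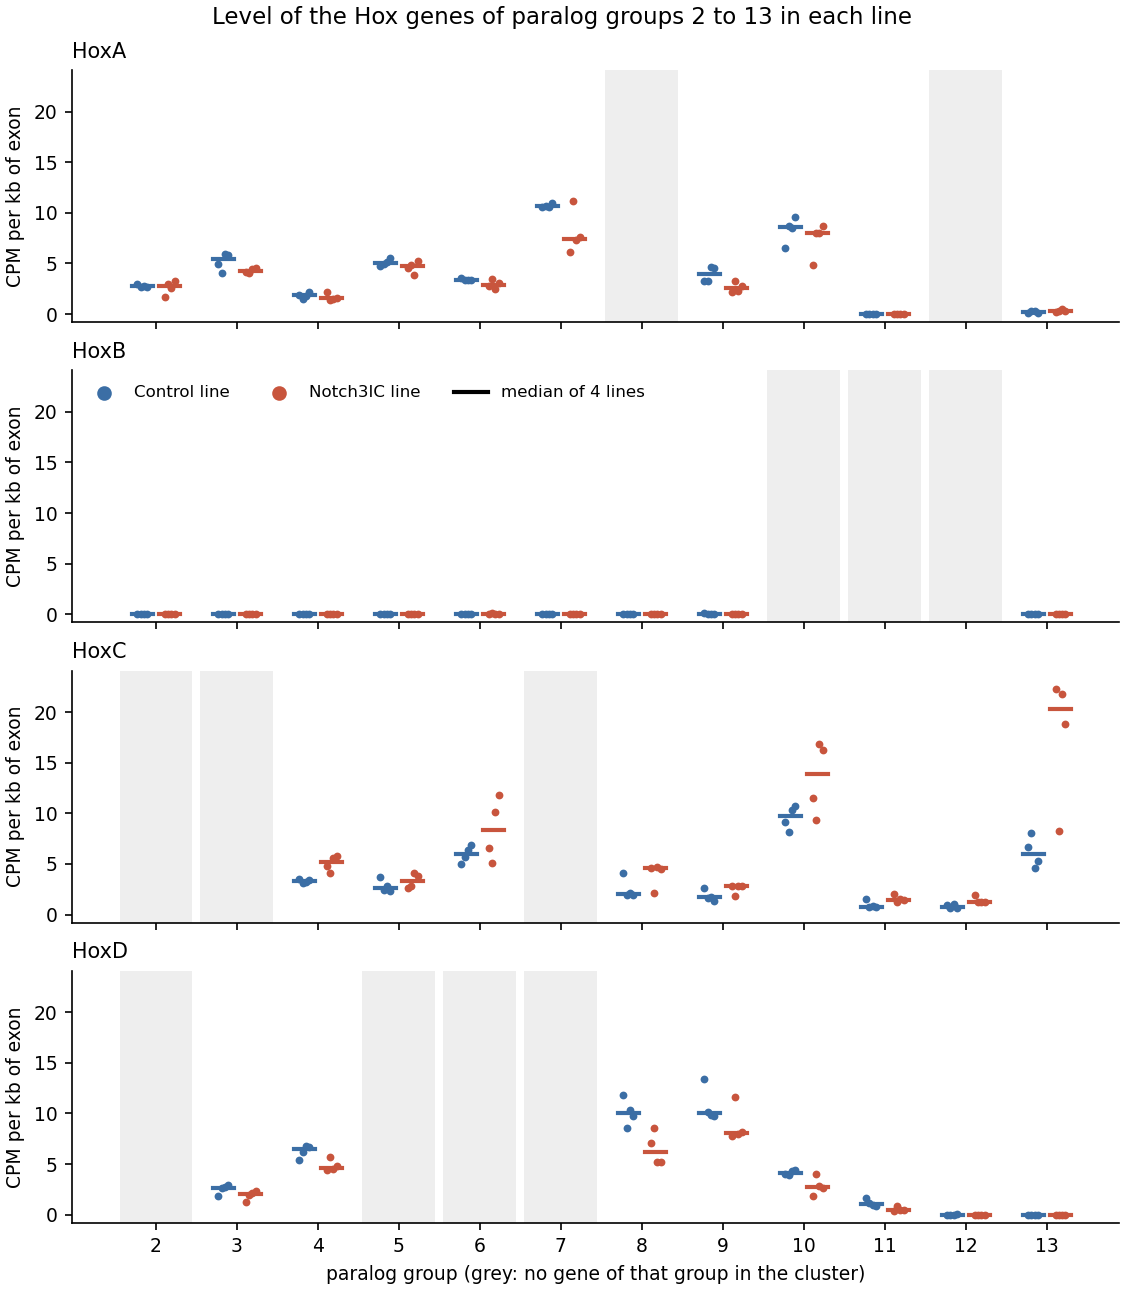
Level of the Hox genes of paralog groups 2 to 13, in CPM per kilobase of exon, in the 4 clusters, with a point for each line and a bar for the median of 4 Control (blue) or 4 Notch3IC (red) lines. HoxB lies at or near 0 throughout, HoxD falls away after group 9, and Hoxc13 stands at a Control median of 5.95 and a Notch3IC median of 20.3.

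The HoxB cluster was silent at this depth in all 8 lines. All 10 genes together had between 1 and 10 counts in a library, and no single gene had more than 5. Hoxb9, the highest, had 5, 1, 1 and 1 counts in the Control lines and 2, 1, 1 and 2 in the Notch3IC lines, and Hoxb3 had 1 or 0 throughout. Hoxb1, Hoxb2, Hoxb4 and Hoxb5 were at 0 in every library, which allows at most 3 counts each, or 0.106 to 0.193 CPM. Counts around the cluster were mixed. Of the listed flanking genes, Ttll6 and Calcoco2 were also at 0 in every library, and Skap1 had 1, 3, 0 and 4 counts in Controls and 17, 0, 15 and 23 in Notch3IC lines. Well-counted genes on either side were Atp5g1, 118.6 kb to the left on chromosome 11, with 554 to 1012 counts, and Snx11, 399.3 kb to the right, with 493 to 887.

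In Notch3IC lines, HoxC genes were higher and HoxA and HoxD genes lower than in Controls, mostly by less than 2-fold. The fitted log2 fold change was above 0 for 9 of 9 HoxC genes (median 0.61), and below 0 for 9 of 9 HoxA genes (median -0.24) and 6 of 6 HoxD genes (median -0.48), whereas 48.4% of all 12430 genes tested were above 0 with a median of -0.01. The signs within each cluster held under each other normalization tried. The genes of a cluster share chromatin and in places reads, so they are not separate measurements. In bulk RNA, fewer cells that express a gene and less RNA per cell cannot be told apart. With adjusted p below 0.1 and at least a 2-fold change as the call, 1 of the 24 Hox genes tested was higher, Hoxc13, beside 3.4% of all genes tested. None was lower, beside 0.74% of all genes, although DESeq2 called 1 lower, Hoxd11 (1.38% of the genes it tested). In either direction, 11 of the 24 had an unadjusted p below 0.05 by edgeR (18.4% of all genes), 5 of them in HoxC. The libraries of the 2 groups did not overlap for 3 Hox genes that were higher (7.08% of all genes) and 1 that was lower (3.75%).

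Because the Control and Notch3IC lines of a set deviated together, the same test was also run with the set as a block. It called Hoxc13 higher and Hoxd11 lower, beside 5.19% and 2.53% of all genes tested. Without the fold limit, 5 of 24 Hox genes passed as higher, all in HoxC (Hoxc4, Hoxc10, Hoxc11, Hoxc12 and Hoxc13), beside 14.9% of all genes. Another 8 passed as lower, beside 12.1% of all genes, among them Hoxa7 and Hoxa9 in HoxA, and Hoxd3, Hoxd4, Hoxd8, Hoxd10 and Hoxd11 in HoxD. No HoxC gene passed as lower and no HoxA or HoxD gene as higher in that test. These passes rest on Sets 1, 3 and 4: with any of the 3 left out no Hox gene passed (lowest adjusted p 0.126, 0.167 and 0.177). Without Set 2 Hox genes passed in both directions, as did many other genes. In that fit 18 of 24 Hox genes and 5816 of 12492 genes tested had an unadjusted p below 0.05. With the fold limit, 1 Hox gene was higher and 1 lower, beside 904 and 426 of all genes.

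**Figure D2:**
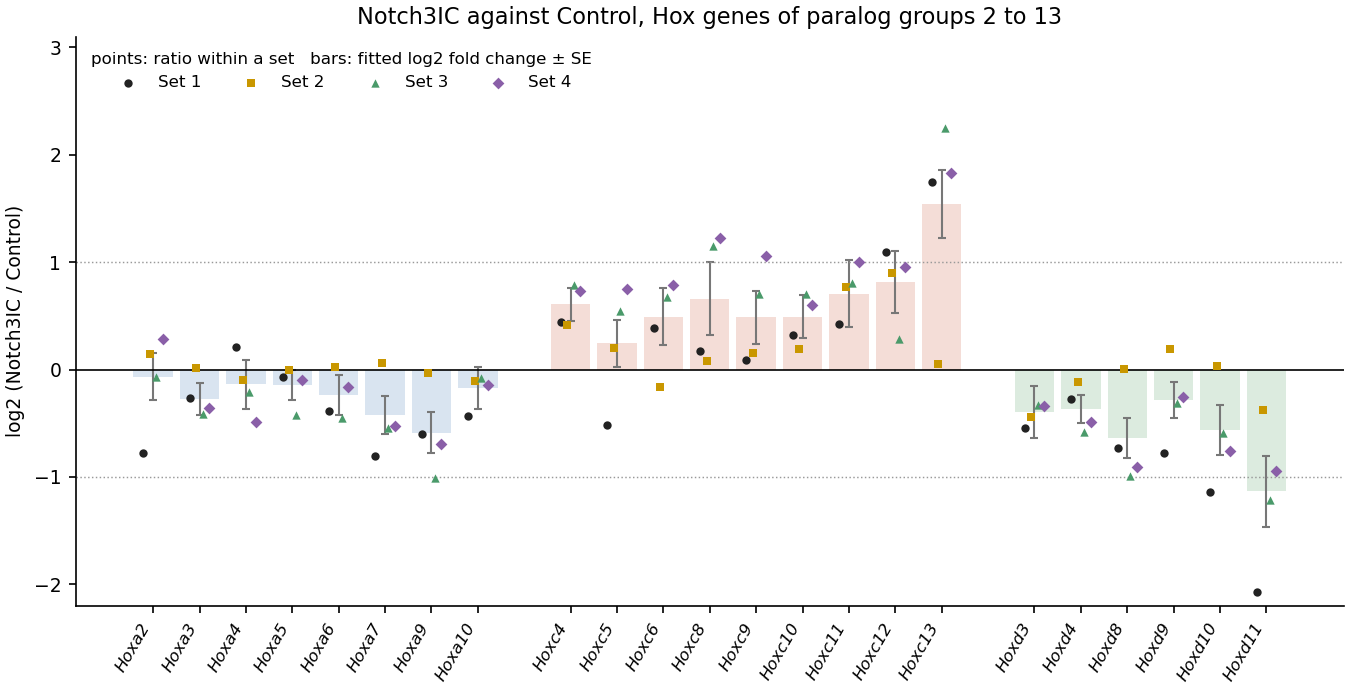
Log2 ratio of Notch3IC to Control for the Hox genes tested, all but 1 of 24 shown; symbols give the ratio within each set, bars the fitted log2 fold change of the test on condition alone with its SE, and dotted lines a 2-fold change. The HoxC bars are above 0 and the HoxA and HoxD bars below, and the Set 2 squares lie near 0 for most genes.

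Hoxc13 (chr15:102921103-102928814, plus strand, GRCm38) had the largest difference of any Hox gene tested. Its normalised read counts in Sets 1 to 4 were 380.7, 460.8, 263.2 and 302.9 for Control and 1280.6, 476.2, 1252.5 and 1081.4 for Notch3IC. The groups did not overlap, but the Notch3IC line of Set 2 was only just above the highest Control. The means were 351.9 ± 87.5 and 1022.7 ± 374.8 (SD, n = 4 lines), a log2 fold change of 1.54 (SE 0.317, adjusted p = 0.0416). The call rests on few lines: dropping a Control line gave an adjusted p of 0.133 (Set 3) or 0.143 (Set 4), and dropping a Notch3IC line gave 0.115 (Set 3) or 0.131 (Set 4). It was 0.105 without Set 1, 0.320 without Set 3 and 0.381 without Set 4, with a log2 fold change of at least 1.31 each time. The call was kept without the Control line of Set 1 (adjusted p = 0.0670) or Set 2 (0.0582), without the Notch3IC line of Set 1 (0.0848) or Set 2 (0.00227), and without Set 2, where the log2 fold change was 1.93 (adjusted p = 0.00344).

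The other HoxC genes differed less. Hoxc4, a gene of the neck and upper trunk, had 162.6, 142.1, 148.4 and 159.4 normalised counts in the Control lines and 221.4, 189.0, 256.6 and 265.3 in the Notch3IC lines. These groups did not overlap, and the difference of 0.61 on the log2 scale (SE 0.152) had an adjusted p of 0.0705 but was below the fold limit. Hoxc12 did not overlap either, on low counts, with 15.1 to 24.9 in Controls and 29.3 to 47.0 in Notch3IC lines (log2 fold change 0.81, SE 0.289, adjusted p = 0.177). Both were picked for display after their values were seen.

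The groups overlapped for Hoxc10 and Hoxc6, the HoxC genes with the highest Control levels per kilobase of RefSeq-matched exon; with all exons as the length, Hoxc13 (5.95) ranked above Hoxc6 (3.95). Hoxc10, which patterns the lower trunk and hindlimb region, had 408.5, 362.9, 460.4 and 476.5 normalised counts in Controls and 512.2, 414.7, 748.6 and 722.3 in Notch3IC lines. Its log2 fold change was 0.49 (SE 0.20, adjusted p = 0.238; 0.46 with adjusted p = 0.0460 in the block test). Sets 3 and 4 were well above their Controls and Set 2 only slightly. Hoxc6, a gene of the thoracic region, had 185.4, 210.1, 233.5 and 252.1 in Controls and 242.7, 187.6, 373.4 and 435.1 in Notch3IC lines (log2 fold change 0.49, SE 0.264, adjusted p = 0.367). In Set 2 it was lower than its Control.

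**Figure D3:**
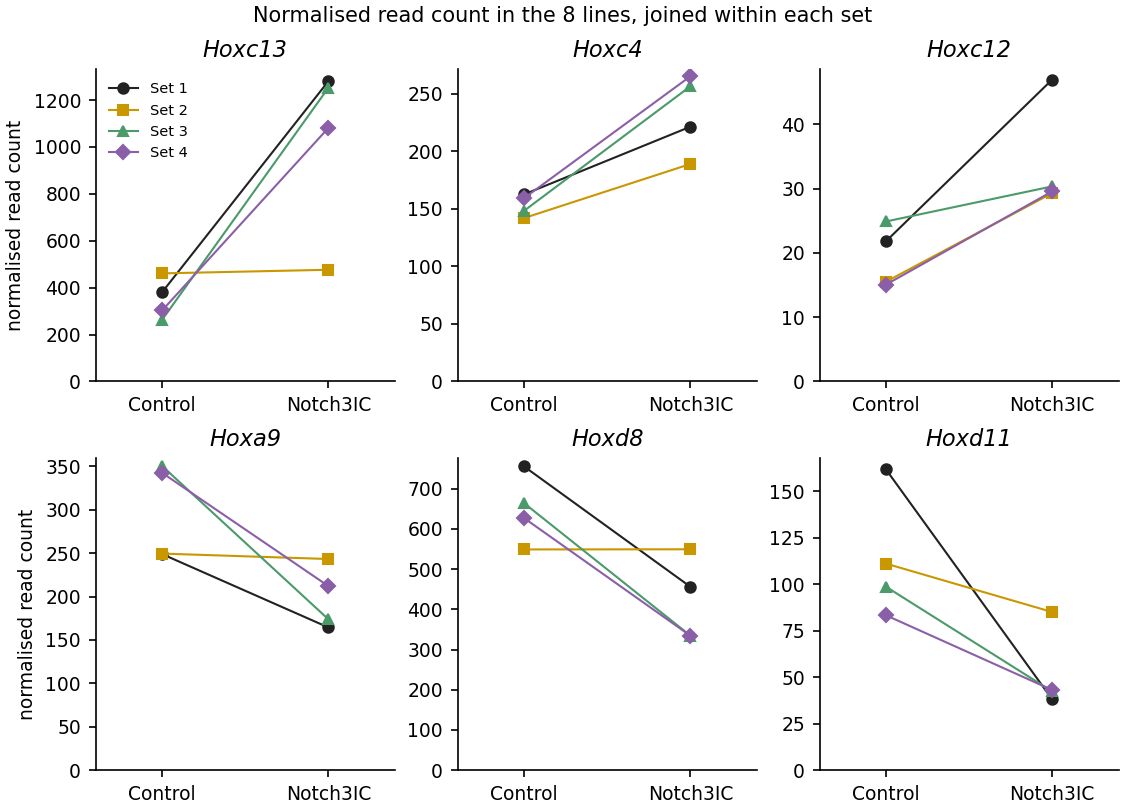
Normalised read count (y axis from 0, a scale for each gene) in the 8 lines, with the Control and Notch3IC lines of a set joined. Hoxc13 climbs steeply in Sets 1, 3 and 4 and is flat in Set 2 (460.8 and 476.2); Hoxd8 slopes down in the same 3 sets, and Hoxd11 in all 4, least in Set 2 (111.0 and 85).

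HoxA genes were lower by small amounts, and none was called. Hoxa7, a central gene, had 497.8, 501.4, 497.7 and 512.2 normalised counts in the Controls and 285.2, 523.1, 341.2 and 355.7 in the Notch3IC lines. The Notch3IC line of Set 2 stood above all Controls and the other 3 well below them (log2 fold change -0.42, SE 0.177, adjusted p = 0.252; -0.45 with adjusted p = 0.0888 in the block test). Hoxa10, the uterine paralog of Hoxc10 and Hoxd10, had 481.9, 636.3, 622.1 and 703.2 in Controls and 357.9, 590.5, 589.5 and 635.3 in Notch3IC lines. Every Notch3IC line was below its own Control while the groups overlapped (log2 fold change -0.17, SE 0.195, adjusted p = 0.712). Hoxa9, an oviduct gene shown because its groups did not overlap, had 248.9, 249.5, 350.3 and 342.5 in Controls and 164.4, 243.2, 173.8 and 212.1 in Notch3IC lines (log2 fold change -0.59, SE 0.190, adjusted p = 0.142). In Set 2 it differed from its Control by 0.04 on the log2 scale, in the downward direction. Among the other HoxA genes, the fitted log2 fold change was -0.27 for Hoxa3 and -0.07 for Hoxa2, which turned to 0.10 without the Notch3IC line of Set 1.

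The HoxD genes had a median log2 fold change of -0.48, against -0.24 in HoxA, a difference that was not tested. Hoxd8, the most abundant, had 755.5, 549.1, 664.3 and 627.1 normalised counts in the Controls and 456.3, 549.5, 334.7 and 334.6 in the Notch3IC lines. In Sets 3 and 4 the Notch3IC lines had the lowest values of the gene, and in Set 2 the lines were close, at 549.1 and 549.5. The log2 fold change was -0.63 (SE 0.186, adjusted p = 0.110), and -0.66 with adjusted p = 0.0582 in the block test. Hoxd9 had 667.3, 507.4, 492.0 and 484.4 in Controls and 388.1, 578.8, 397.3 and 406.4 in Notch3IC lines (log2 fold change -0.28, SE 0.170, adjusted p = 0.427). Set 2 again went the other way, with the Notch3IC line the higher. Hoxd11, a posterior gene shown after its values were seen, had 161.6, 111.0, 98.6 and 83.2 in Controls and 38.0, 85, 42.3 and 43.1 in Notch3IC lines. The Notch3IC line was below its own Control in all 4 sets, and only the Set 2 line reached into the Control range. Its log2 fold change was -1.13 (SE 0.329, adjusted p = 0.108), and -1.15 with adjusted p = 0.0517 in the block test, which called it. Without Set 2 it was -1.47 with adjusted p = 0.0377 and without Set 1 it was -0.80 with adjusted p = 0.206. The block call was lost without Set 1 (-0.85, adjusted p = 0.141), Set 3 (-1.13, adjusted p = 0.190) or Set 4 (-1.21, adjusted p = 0.177), the fold limit being missed only without Set 1. Over all left-out lines and sets, on condition alone, the adjusted p ran from 0.0155 to 0.503.

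As all 6 HoxD genes tested had fitted values below 0, the windows of 250 bases before their RefSeq start sites (GRCm38.p6) were read for motifs of the Notch pathway. Windows were found for 22 of the 39 Hox genes, 24 in all: 10 in HoxA, 3 in HoxB, 10 in HoxD and 1 in HoxC, so the counts hold almost nothing on HoxC. GTGGGAA, a core site of Rbpj, the DNA-binding partner of the Notch intracellular domain, was in 0 of the 24 on either strand, and in 5.42% of the 32851 windows of all genes. CACGTG, an E-box that reads the same on both strands and is bound by many basic helix-loop-helix proteins, was in 6.02% of all windows. It was in 4 of 10 HoxD windows, those of Hoxd1, Hoxd10, Hoxd13 and the second start of Hoxd11. The window at the first start of Hoxd11 had no E-box. Nor had any of the 14 other Hox windows, 10 of them in HoxA, where all 9 genes tested also had fitted values below 0. CACGCG, a site of the Hes and Hey repressors that shares its first letters with the E-box, was in those of Hoxd1 and Hoxa10 (7.62% of all windows, both strands). Of the HoxD genes with an E-box, Hoxd1 and Hoxd13 were not detected, and the window of Hoxd8 has none of the 3 motifs; a relation between motif and expression was not tested. The windows of Hoxd11 (its second start, chr2:74682073-74682322, plus strand), Hoxd10 (chr2:74691641-74691890, plus strand) and Hoxd8 (chr2:74704365-74704614, plus strand) are given to show where the E-box lies in the first 2, 96 and 73 bases before the start, in capitals.
Hoxd11: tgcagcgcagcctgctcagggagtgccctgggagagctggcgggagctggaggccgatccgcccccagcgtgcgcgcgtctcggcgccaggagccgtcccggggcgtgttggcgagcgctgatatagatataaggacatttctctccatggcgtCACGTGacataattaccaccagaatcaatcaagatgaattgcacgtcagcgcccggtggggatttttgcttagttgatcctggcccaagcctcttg
Hoxd10: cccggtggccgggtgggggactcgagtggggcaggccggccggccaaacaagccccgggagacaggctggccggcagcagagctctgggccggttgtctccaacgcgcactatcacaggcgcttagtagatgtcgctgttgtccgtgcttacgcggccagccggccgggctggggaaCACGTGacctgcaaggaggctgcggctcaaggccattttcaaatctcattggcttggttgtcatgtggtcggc
Hoxd8: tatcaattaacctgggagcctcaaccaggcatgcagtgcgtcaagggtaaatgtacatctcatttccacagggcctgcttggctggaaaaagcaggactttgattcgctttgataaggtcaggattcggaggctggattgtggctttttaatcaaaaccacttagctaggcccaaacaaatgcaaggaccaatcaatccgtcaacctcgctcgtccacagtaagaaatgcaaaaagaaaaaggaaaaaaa

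Taken set by set, the opposite directions of HoxC and of HoxA and HoxD appeared in Sets 1, 3 and 4. In Set 2, 8 of 9 HoxC genes were higher, but so were 4 of 9 HoxA and 3 of 6 HoxD genes. The median log2 ratio of the HoxC genes was 0.39, 0.19, 0.71 and 0.96 in Sets 1 to 4. That of the HoxA genes was -0.39, -0.01, -0.42 and -0.36, and that of the HoxD genes -0.75, -0.06, -0.59 and -0.62. Set 2, the set with 319 Notch3 counts, had the median nearest to 0 in each of the 3 clusters, and whether the 2 are related was not tested. In all 4 sets, 7 of 9 HoxC genes were higher (21.1% of all genes were), and 4 of 9 HoxA and 3 of 6 HoxD genes were lower (19.3% of all genes were). The exceptions in HoxC were Hoxc5, lower in Set 1, and Hoxc6, lower in Set 2. Sets also differed in the level of a gene over both lines. The term for set passed at adjusted p below 0.1 for 5 of 24 Hox genes, below the 36.1% of all genes tested. Among these Hox genes were Hoxa10, Hoxc10, Hoxc11 and Hoxd3. Without Set 1 the term passed for 0 Hox genes and 22 of all genes, and without Set 2 for 7 and 5663.

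By position within a cluster, the median differences necessarily had the sign of the cluster, since all its genes tested had that sign. The median log2 fold change was -0.27 for the anterior, -0.19 for the central and -0.38 for the posterior HoxA genes, and -0.40, -0.50 and -0.56 in HoxD. The HoxD values rest on 1, 2 and 3 genes tested, with Hoxd3 and Hoxd4, whose reads are uncertain, in the first 2 classes. HoxC has no anterior gene; its central genes had a median of 0.55 and its posterior genes of 0.71. Fitted values of HoxC genes therefore had the opposite sign to those of their HoxA and HoxD paralogs, although none of those named here was called. Hoxc4 was at 0.61, Hoxa4 at -0.14 and Hoxd4 at -0.37. In group 10, Hoxc10 was at 0.49, Hoxa10 at -0.17 and Hoxd10 at -0.56.

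Summed over a cluster, HoxC made up more of the Hox total in Notch3IC lines, and HoxA and HoxD less. The HoxC sum was 37.2, 32.4, 33.0 and 33.1 CPM per kilobase in the Control lines and 59.1, 35.9, 68.7 and 66.4 in the Notch3IC lines of Sets 1 to 4. The HoxD sum was 38.1, 32.6, 35.0 and 34.4 in Controls and 22.8, 32.7, 23.2 and 23.5 in Notch3IC lines. The HoxA sum averaged 48.7 ± 4.93 and 39.8 ± 5.34 (SD, n = 4 lines). HoxC thus held 28.8 ± 1.88% of the Hox total in Controls and 46.4 ± 9.92% in Notch3IC lines, HoxA 41.4 ± 3.50% and 32.4 ± 4.84%, and HoxD 29.8 ± 1.61% and 21.0 ± 5.27%. In Set 2 the shares hardly moved, HoxC going from 29.1% to 31.6%. Hoxc13 alone gave much of the HoxC sum, its median level going from 5.95 in Controls to 20.3 in Notch3IC lines.

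**Figure D4:**
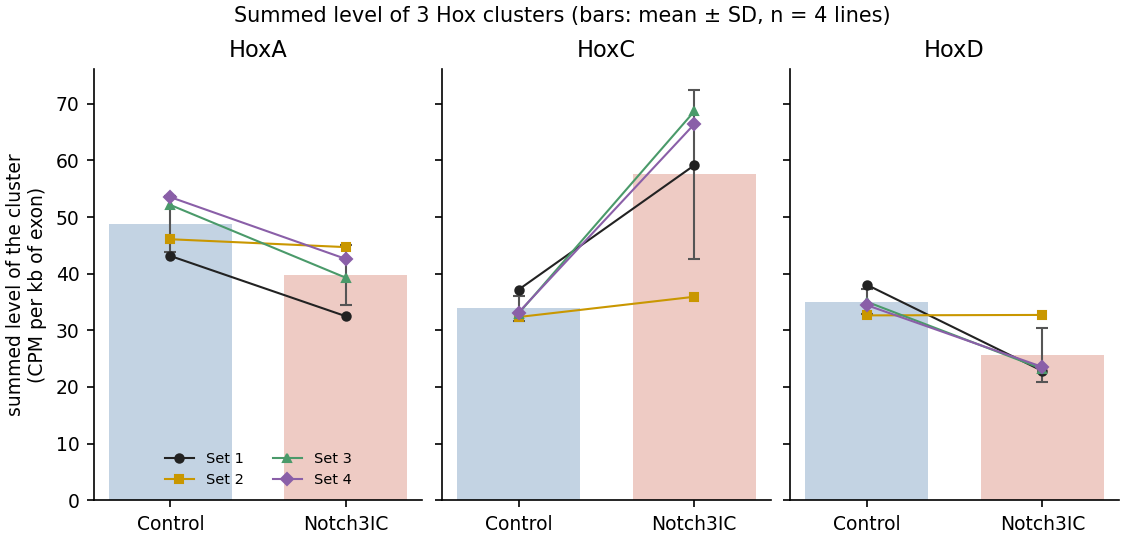
Summed level of the genes of each expressed cluster, in CPM per kilobase of exon, with bars for the mean and SD of 4 lines and lines joining the Control and Notch3IC line of each set. The HoxC sum is higher in Notch3IC lines of Sets 1, 3 and 4 (59.1 to 68.7, against 33.0 to 37.2), and Set 2 is nearly flat in all 3 clusters.

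On the lists of Hox cofactors and of Polycomb and trithorax genes, no gene was called (3.4% of all genes were higher and 0.74% lower), though on condition alone Meis3 and Rnf2 passed the adjusted p and missed the fold limit. In the block test with no fold limit (14.9% of all genes higher and 12.1% lower), 3 of 9 cofactors passed as higher and 1 as lower, 1 and 2 of 11 genes of Polycomb complex 2, 3 and 0 of 16 of complex 1, and 2 and 1 of 13 on the trithorax list. None of the 9 Pbx and Meis class cofactors, which bind DNA beside Hox proteins, was called by edgeR, with or without the block, or by DESeq2 (median log2 fold change 0.04, 2 with unadjusted p below 0.05, beside 18.4% of all genes). The most abundant of them, Meis2, had 2182 ± 369 normalised counts in Controls and 1737 ± 344 in Notch3IC lines. Meis3, named after its values were seen, had 175.8 ± 18.1 and 327.5 ± 49.8, with no overlap and a log2 fold change of 0.90 (SE 0.154, adjusted p = 0.0262), below the fold limit. None of the 11 genes of Polycomb complex 2 (Rbbp7 the most abundant; median -0.07), 16 of Polycomb complex 1 (Pcgf5; median -0.05) or 13 of the trithorax and H3K27 demethylase list (Wdr5; median -0.08) was called by any of the same tests, with 2, 1 and 2 at unadjusted p below 0.05. In Polycomb complex 1 that gene was Rnf2, its ubiquitin ligase subunit, with 1057 ± 53.4 and 1480 ± 204 normalised counts (log2 fold change 0.49, adjusted p = 0.0569).

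Of 11 listed genes flanking HoxA, HoxC or HoxD that could be tested, 0 were called by edgeR, with or without the block, or by DESeq2 (3.4% of all genes were called higher and 0.74% lower by edgeR), 1 had an unadjusted p below 0.05 (18.4% of all genes), and the median log2 fold change was 0.07; Copz1, beside HoxC and the most abundant, was at 0.12 (SE 0.128). The related ParaHox and Evx genes were not detected, 6 of 8 being at 0 in every library. Of the 16 noncoding RNAs of the clusters on the list, 9 had a row and 2 could be tested, Hoxaas3 and Hoxd3os1. Their log2 fold changes were -0.44 and -0.63, and neither was called or had an unadjusted p below 0.05. Mir196b, the most abundant per length, had at most 8 counts.

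Retinoic acid, which switches on anterior Hox genes in the embryo, is made by aldehyde dehydrogenases of the Aldh1a family. Of 13 pathway genes tested, edgeR on condition alone called 1 higher (3.4% of all genes) and none lower (0.74%). It was Aldh1a3, with 17, 8, 12 and 7 counts in Controls and 329, 12, 153 and 96 in Notch3IC lines (log2 fold change 3.80, SE 0.852, adjusted p = 0.0497). Aldh1a1, the most abundant gene of the list, had 1661, 3354, 6342 and 5778 counts in Controls and 182, 1771, 584 and 444 in Notch3IC lines. It was called lower by edgeR in the block test (log2 fold change -2.72, adjusted p = 0.0412) and by DESeq2 (-2.15, adjusted p = 0.0890), and not by edgeR on condition alone (-2.14, adjusted p = 0.188). Both differed least from Control in Set 2, with log2 ratios of 0.85 for Aldh1a3 and -0.63 for Aldh1a1. Aldh1a2 was not called, at 0.27 (SE 0.449, adjusted p = 0.810).

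Some markers of cell type also differed between the groups. The shares of all genes called were 3.4% higher and 0.74% lower, and 5.19% and 2.53% in the block test. Of 15 ovarian surface and mesothelial genes tested, 2 were called lower, mesothelin (Msln) and Upk1b, and 1 higher, the nuclear receptor gene Nr2f2; the block test called 5 lower and Nr2f2 higher. The summed level of that list was 569.2, 839.5, 1256.8 and 1246.6 CPM per kilobase in Controls and 258.9, 573.1, 541.7 and 444.4 in Notch3IC lines, Upk3b being the most abundant. Of 5 fibroblast and smooth muscle genes tested, 1 was called higher, Pdgfrb (log2 fold change 5.99, SE 0.828, adjusted p = 0.0169), and the block test called 3. Dcn of the same list went the other way, lower than Control in each set. In the block test its log2 fold change was -0.53 with adjusted p = 0.0275, below the fold limit (12.1% of all genes passed as lower without that limit). The sum of that list was 1754.2, 1108.7, 851.9 and 613.5 in Controls and 3517.5, 1395.2, 1782.0 and 1835.3 in Notch3IC lines, with Col1a1 the most abundant and Acta2 giving much of the Set 1 sums (704.7 and 1554.2). Among 5 granulosa and theca genes 1 was called lower, the cholesterol carrier gene Star (log2 fold change -2.0, adjusted p = 0.0382; 2 in the block test), and among 3 leukocyte genes 1 was called higher, Csf1r, on 7 to 36 counts a library. The granulosa and theca sum was 29.3 to 44.0 in Controls and 31.5 to 34.6 in Notch3IC lines (Nr5a1 the most abundant, Fshr and Cyp19a1 at 0), and the leukocyte sum 1.89 to 4.38 and 2.09 to 3.82 (Cd68 the most abundant). Neither of 2 endothelial genes, nor of 2 oviduct genes, was called by edgeR or DESeq2 or had an unadjusted p below 0.05 on condition alone. Wt1, on both the oviduct and the ovarian surface list, was nevertheless lower than Control in each set. In the block test its log2 fold change was -0.80 with adjusted p = 0.0275, below the fold limit. The part of these shifts in the Hox differences was not tested.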

How the data were processed

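Poly-A RNA from 8 lines (4 Control, 4 Notch3IC, numbered by set in the labels) had been sequenced as 100-base single-end reads. The deposited files hold raw read counts per gene symbol, which per the labels the authors made with TopHat and Cufflinks on build mm9 and tested with DESeq; versions, gene annotation and use of strand are not given in the sources used here. Totals were 15524262 to 28208072 counts per library. From the counts, edgeR 4.0.16 (R 4.3.3; TMM, filterByExpr, robust quasi-likelihood F test, Benjamini-Hochberg over all 12430 genes tested) compared conditions; a call needs adjusted p below 0.1 and a log2 change of at least 1. DESeq2 1.42.0, other normalizations and filters, and each line and set left out were alternatives. The set was used as a block after checking that lines of a set deviate together: correlations of deviations from group means were 0.79, 0.41, 0.57 and 0.43 for same-numbered pairs, and -0.51 to 0.40 for crossed pairs; the labels and methods describe the sets as matched. Ratios within a set add 0.5 counts. Normalised counts are scaled to the mean effective library. Symbols were matched to GENCODE names on GRCm38 (20882 directly, 1922 by synonym) for lengths and positions; no coordinate was converted from mm9. Fits were tested on simulated data. Genes given in full are those called, those whose groups do not overlap with at least a 2-fold change, and the 2 highest Control levels of each cluster; Hoxc4, Hoxc12, Hoxa9 and Hoxd11 were added after their values were seen; from other lists, those called and the most abundant. The members, lists and rules were chosen with earlier results of these data known. Of the Hox genes, 1 is included in counts, sums and medians and is otherwise not reported here. Floors of 3 counts cover counting error only.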

Additional observations from a re-analysis of the deposited data

Results flagged for a closer look

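In 8 of 50 groups of 4 lines (25 detected Hox genes, 2 conditions), the highest or lowest line stood further from the others than Dixon's 95% critical value for 4 values allows; about 1 in 20 groups, or 2.5 here, would do so by chance. The values are normalised read counts. Among Control lines, Set 1 was high for Hoxc8 (177.5, the others 84.0 to 91.9) and for Hoxd9 (667.3, the others 484.4 to 507.4). Among Notch3IC lines, Set 1 was low for Hoxa10 (357.9, the others 589.5 to 635.3) and high for Hoxc12 (47.0, the others 29.3 to 30.3). The Notch3IC line of Set 2 was low for Hoxc8 (90.8, the others 196.8 to 205.1) and Hoxc9 (102.6, the others 154.3 to 158.2), and high for Hoxd9 (578.8, the others 388.1 to 406.4) and Hoxd11 (85, the others 38.0 to 43.1). In each of these last 4 the Set 2 line lay on the side of the Controls.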

How the results depend on the processing

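The median log2 fold change of each cluster kept its sign under all 23 alternatives, from -0.33 to -0.20 for HoxA, 0.49 to 0.70 for HoxC and -0.64 to -0.36 for HoxD. Of 552 values of single Hox genes under the same alternatives, 549 kept their direction; the exceptions were Hoxa2 without the Notch3IC line of Set 1 (0.10; -0.18 to 0.10 over the single lines left out), without Set 1 (0.12) and in the block without Set 1 (0.12). Over all genes, 423 were called higher and 92 lower. The replicate block gave 645 and 315, DESeq2 707 and 192, and the block with no fold limit 1858 and 1509. An adjusted p under 0.05 left 48 lower, and no fold limit on condition alone gave 210 lower. Leaving out each line gave 75 to 702 higher and 8 to 305 lower. Without Set 1, 151 were lower (46 higher and 23 lower in the block); without Set 2, 670 and 229 (904 and 426 in the block); without Set 3, 1 and 0 (59 and 22); without Set 4, 0 and 0 (129 and 30), where edgeR still had 1101 and 1011 genes at an unadjusted p below 0.05. Of the Hox genes, 1 was called higher and 0 lower; 2 were higher with no fold limit, 5 higher and 8 lower with no fold limit in the block, and 1 lower in the block, by DESeq2 and without Set 2, with or without the block. Leaving out each line gave 0 to 2 higher and 0 to 1 lower, and without Set 1, 3 or 4 there were 0 higher, with or without the block. The set term gave 4487 genes and 5 Hox genes. Adjusted p under 0.05 gave 2687 and 2, and single lines left out gave 446 to 6354 and 0 to 8. It gave 22 and 0 without Set 1, 5663 and 7 without Set 2, and 2 Hox genes each without Set 3 or 4. The cause of these shifts was not tested; fewer lines leave fewer degrees of freedom. Depth limits HoxB, Hoxa11, Hoxa13, Hoxd1, Hoxd12 and Hoxd13, which did not pass the filter on low counts; with no filter 34 Hox genes were tested and 1 was called, Hoxc13. Lengths come from another annotation than the counts, so the order of levels is less certain than the ratios, and the block without a set and without a fold limit, and lengths over all exons, were added after seeing the data.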
